A study of Homo sapiens with 4 samples.

Results

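The proteasome genes of 293FT cells, from the subunits of the particle to its assembly chaperones and to the factor that controls their transcription, were described in NIPBLmut and NIPBLwt libraries. The members were the protein-coding genes whose GENCODE 29 symbol is PSMA, PSMB, PSMC, PSMD, PSME, PSMF or PSMG followed by a number, together with ADRM1, POMP, NFE2L1 and DDI2. This rule, which used no measured value, gave 52 of the 58174 genes in the deposited tables. They comprised 8 alpha and 11 beta subunits of the 20S core, 6 ATPases and 12 other subunits of the 19S cap, 4 activators with 1 inhibitor, 8 assembly chaperones, and NFE2L1 with DDI2. Of the 52, 49 passed the filter on low counts. PSMA8, PSMB11 and PSMD5 did not.

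RNA was sequenced from 293FT, an established line of human embryonic kidney origin that expresses the large T antigen of SV40. There were 2 libraries of NIPBLmut cells and 2 of NIPBLwt cells, all grown in DMEM with fetal bovine serum and none with a labelled treatment. NIPBL encodes the protein that loads cohesin onto chromosomes, and the title of the series names Cornelia de Lange and CHOPS syndromes. The labels give neither the kind of mutation nor the number of clones, nor whether the libraries of a group came from separate cultures, so that p-values measure only the spread between these libraries, which may be technical.

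The proteasome degrades proteins tagged with ubiquitin. Its 20S core is a barrel in which outer rings of alpha subunits gate the entry and inner rings of beta subunits carry the proteolytic sites, and its 19S cap binds the tagged protein, removes the ubiquitin, unfolds the chain with a ring of ATPases and feeds it into the barrel. Each particle holds its subunits in fixed proportions. When proteasome activity is short, the transcription factor NFE2L1 is freed from the endoplasmic reticulum membrane, cut by the protease DDI2, and raises the transcription of many subunit genes together.

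The expected counts summed to between 31545743 and 33161120 per library, and 1 count corresponded to 0.0287 to 0.0335 CPM (counts scaled to library size by TMM). The members took 0.634% and 0.603% of all counts in the NIPBLmut libraries, against 0.549% and 0.706% in the NIPBLwt libraries. The NIPBLmut libraries were close to each other, with a mean chi-square per gene of 3.71, against 42.1 for the NIPBLwt pair. These values were scaled by library totals, without TMM. Averaged over genes, the spread between replicates was thus larger in the NIPBLwt pair. Single genes could differ, among them NFE2L1, with an SD of 5.36 CPM in NIPBLmut and 1.01 CPM in NIPBLwt. Of 8 markers of the kidney line all were tested, PAX2 being low in NIPBLmut (0.546 to 0.68 CPM) and in NIPBLwt (0.268 to 0.645 CPM). By edgeR 1 of the 8 was called higher, KRT8, at 111 and 104 CPM in NIPBLmut and 59.8 and 61.1 CPM in NIPBLwt. Called lower were 3, VIM, LIN28B (112 and 105 CPM in NIPBLmut and 206 and 291 CPM in NIPBLwt) and NEFM, the last at 1.33 and 0.833 CPM in NIPBLmut and 72.8 and 63.9 CPM in NIPBLwt. Of 6 immune cell markers, which were listed because such cells carry much immunoproteasome, 2 passed the filter and neither was called by edgeR. CD3E was at 0 in all 4 libraries, and PTPRC had 1 and 2 counts in NIPBLmut and 0 in both NIPBLwt libraries.

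Across the members, only NFE2L1 passed the test, and it rose in NIPBLmut. In bulk RNA, fewer cells expressing a gene and less RNA per cell cannot be told apart. No subunit, activator or chaperone was called in either direction by edgeR's quasi-likelihood test, with an adjusted p under 0.05 taken as the threshold. Of the 49 tested members 1 was thus called higher, against 3.71% of all 18984 tested genes, and 0 were called lower, against 2.10%. At an unadjusted p under 0.05, 4 were higher and 10 lower, against 15.9% and 13.8% of all tested genes, and DESeq2 called 2 higher and 8 lower, against 6.82% and 6.35%. Both NIPBLmut libraries lay above both NIPBLwt libraries in 7 members, or 14.3%, against 32.3% of all tested genes. They lay below both in 20 members, or 40.8%, against 30.8%. The median log2 fold change of NIPBLmut over NIPBLwt was -0.18, beside -0.01 over all tested genes, with 36 members negative and 13 positive. The sign depended on scaling, since the member median was 0.01 with total counts and 0.04 in TPM, where the median of all genes was 0.17 with total counts and 0.12 in TPM. Without NIPBLwt replicate 1 the member median was -0.44, and without NIPBLwt replicate 2 it was 0.05.

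**Figure D1:**
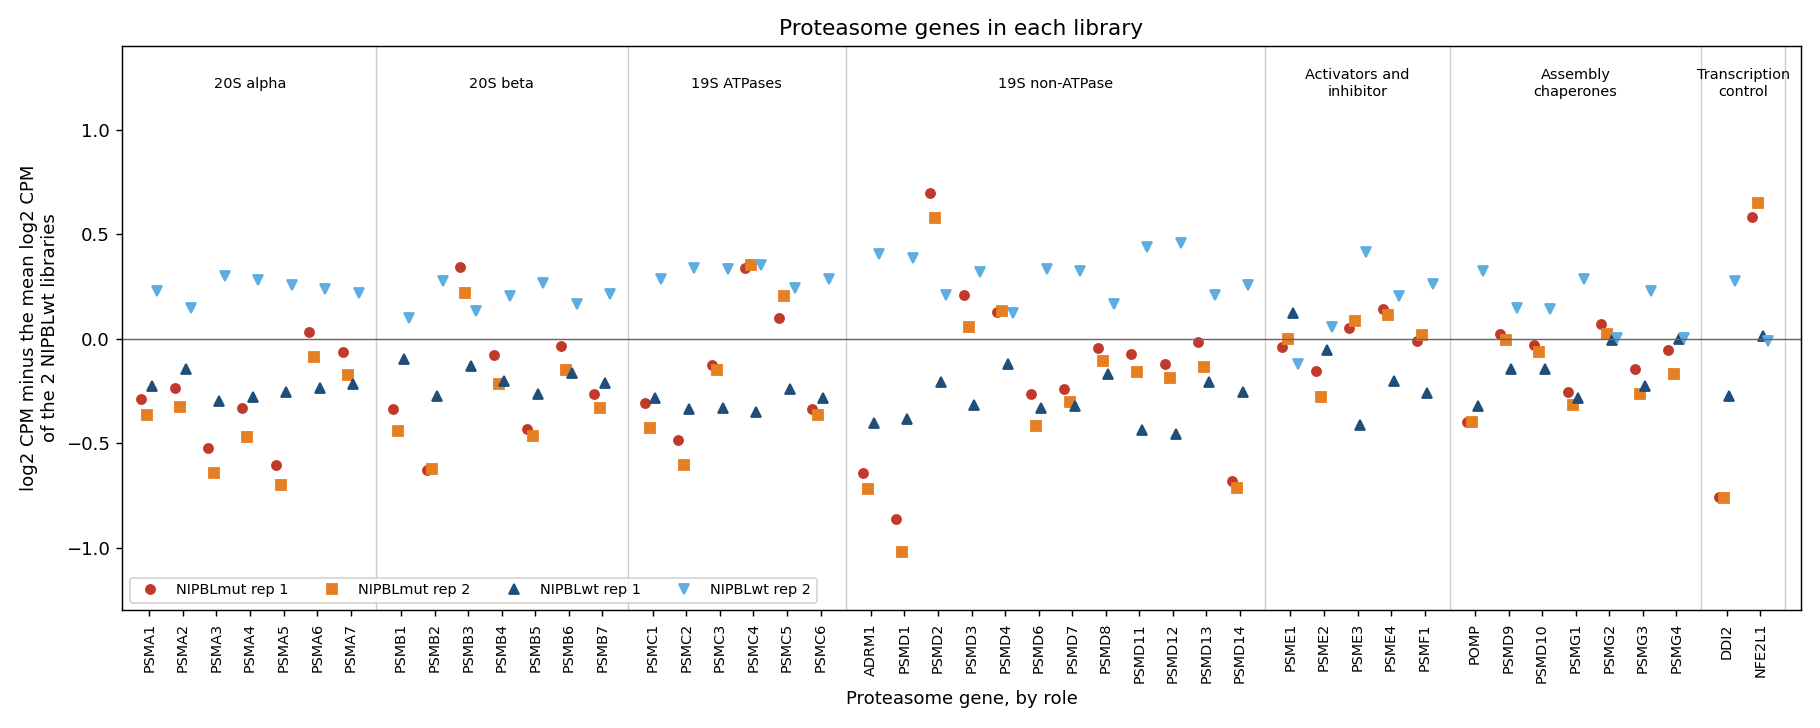
Level of 46 tested proteasome genes in each library, as log2 CPM minus the mean log2 CPM of the 2 NIPBLwt libraries, by role (PSMB8, PSMB9 and PSMB10 are not drawn). Circles and squares are the 2 NIPBLmut libraries and triangles the 2 NIPBLwt libraries; NIPBLwt replicate 2 (pointing down) is above replicate 1 (pointing up) except in PSME1 and NFE2L1, and the NIPBLmut pair lies mostly below replicate 2, with PSMD2 and NFE2L1 well above both NIPBLwt libraries.

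NFE2L1, the transcription factor that raises proteasome genes, had 163 and 170.4 CPM in NIPBLmut, against 109.7 and 108 CPM in NIPBLwt. The pairs did not overlap, with NIPBLmut above, as in 32.3% of all tested genes. NFE2L1 was 1 of the 3 members in which NIPBLwt replicate 2 was not above replicate 1. NFE2L1 rose 1.53-fold, or by 0.61 on the log2 scale with an SE of 0.11 (edgeR adjusted p = 0.042). The call was lost without NIPBLmut replicate 1 (0.64, edgeR adjusted p = 0.338) and without NIPBLmut replicate 2 (0.58, edgeR adjusted p = 0.461), where the spread came from the NIPBLwt pair alone. NFE2L1 lies on chromosome 17 (48048329 to 48061487, plus strand, GRCh38), where its 25 nearest tested protein-coding neighbours to either side had a median of 0.23. With that median taken out as an offset the fold change was 0.39 and not called (edgeR adjusted p = 0.118).

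DDI2, the protease that cuts NFE2L1 into its active form, had 45.8 and 45.7 CPM in NIPBLmut, against 64.1 and 93.7 CPM in NIPBLwt. Its groups did not overlap either, with NIPBLmut below, as in 30.8% of all tested genes. The values pointed the other way from those of NFE2L1. The log2 fold change was -0.79 (SE 0.20), with an adjusted p of 0.0753 by edgeR, which was not called, and of 0.0054 by DESeq2. DDI2 shares 1854 of its 12136 exon bases with RSC1A1 on the same strand, and how the authors' counting divided those reads was not tested. NGLY1, the enzyme that removes sugars from NFE2L1, had 55.5 and 53.1 CPM in NIPBLmut and 47.5 and 59.9 CPM in NIPBLwt, with a log2 fold change of 0.02 (edgeR adjusted p = 0.956). The relatives of NFE2L1 were not called, NFE2L2 at -0.34 (edgeR adjusted p = 0.156) and NFE2L3 at 0.28 (edgeR adjusted p = 0.211).

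The 7 alpha subunits of the standard core, PSMA1 to PSMA7, were all negative in log2 fold change, between -0.68 and -0.05, although PSMA6 and PSMA7 were positive with total counts or in TPM, and none was called. PSMA5 had the lowest value, with 125 and 117 CPM in NIPBLmut and 159 and 227 CPM in NIPBLwt. Its NIPBLmut levels lay below both NIPBLwt levels (-0.68, SE 0.19, edgeR adjusted p = 0.0939), and DESeq2 called it (adjusted p = 0.0133). PSMA6 was at the other end, with 164 and 151 CPM in NIPBLmut, inside the range of 136 to 189 CPM spanned by the NIPBLwt libraries (-0.05, SE 0.18, edgeR adjusted p = 0.883). In 5 of the 7 both NIPBLmut libraries lay below both NIPBLwt libraries, namely PSMA1, PSMA2, PSMA3, PSMA4 and PSMA5, against 30.8% of all tested genes. PSMA8, the alpha subunit of testis, had 2 and 1 counts in NIPBLmut and 0 in both NIPBLwt libraries, too few for a comparison.

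Among the beta subunits, PSMB5, PSMB6 and PSMB7 hold the proteolytic sites of the standard core. PSMB5, the chymotrypsin-like site, had 124 and 121 CPM in NIPBLmut, against 139 and 201 CPM in NIPBLwt. Both NIPBLmut libraries were below both NIPBLwt libraries, as in 30.8% of all tested genes. The log2 fold change of -0.47 (SE 0.19) was not called (edgeR adjusted p = 0.175). PSMB7, the trypsin-like site, had 132 and 126 CPM in NIPBLmut and 137 and 184 CPM in NIPBLwt (-0.31, edgeR adjusted p = 0.274). PSMB6, the caspase-like site, had 116 and 107 CPM in NIPBLmut, within the 106 and 133 CPM of NIPBLwt (-0.09, edgeR adjusted p = 0.712). Of the structural beta subunits PSMB2 had 76.8 and 77.1 CPM in NIPBLmut and 98.1 and 144 CPM in NIPBLwt (-0.65, edgeR adjusted p = 0.105), and DESeq2 called it (adjusted p = 0.0229). PSMB3 was the single standard core subunit with a positive value (PSMA6, PSMA7, PSMB4 and PSMB6 joined it with total counts or in TPM), at 204 and 187 CPM in NIPBLmut and 147 and 176 CPM in NIPBLwt (0.27, edgeR adjusted p = 0.245). PSMB1 had -0.39 and PSMB4 -0.16.

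The immunoproteasome subunits PSMB8, PSMB9 and PSMB10 replace the standard proteolytic subunits in immune cells and after interferon. They were low in all libraries and differed among themselves. PSMB8 had 15 and 16 counts in NIPBLmut, against 2 and 4 counts in NIPBLwt. The ratio of the summed counts, scaled to library size, was 4.59 (exact 95% interval 1.88 to 13.4, which covers counting error only), and the edgeR adjusted p was 0.0745. PSMB8 passed the filter on low counts through its NIPBLmut libraries alone, so neither the ratio nor the p is support for a difference. It is counted among the positive and non-overlapping members above. PSMB9 had 4.02 and 3.82 CPM in NIPBLmut and 2.55 and 1.14 CPM in NIPBLwt (log2 fold change 1.09, SE 0.40, edgeR adjusted p = 0.15). PSMB10 ran the other way, with 7.07 and 7.24 CPM in NIPBLmut against 10.6 and 19.7 CPM in NIPBLwt (-1.08, SE 0.31, edgeR adjusted p = 0.0961). DESeq2 called PSMB10 lower (adjusted p = 0.00934) but neither PSMB8 (0.263) nor PSMB9 (0.108). The groups did not overlap in any of these 3 genes, where all tested genes had 32.3% above and 30.8% below without overlap. PSMB8 and PSMB9 lie head to head on chromosome 6 and share 139 exon bases on opposite strands, so reads there may not have been told apart. With the noncoding gene PSMB8-AS1, PSMB8 shares 618 of 2997 exon bases on the opposite strand, and PSMB9 174 of 3072 on the same strand. PSMB10 shares 644 of its 1853 exon bases with AC040162.1 on the same strand. How the authors' counting divided the reads of these genes was not tested. TAP1, a peptide transporter subunit from the same stretch of chromosome 6, had 26.6 and 25.6 CPM in NIPBLmut and 27.7 and 26.7 CPM in NIPBLwt (-0.06, edgeR adjusted p = 0.762). The summed level of the immune cell markers was 3.64 and 3.65 CPM in NIPBLmut and 1.9 and 1.64 CPM in NIPBLwt, and their part in the values of PSMB8 and PSMB9 was not tested. Of 18 genes of peptide presentation and interferon response, 16 were tested. By edgeR 0 were called higher and 0 lower, against 3.71% and 2.10% of all tested genes. At an unadjusted p under 0.05, 1 was higher and 1 lower, against 15.9% and 13.8%. DESeq2 called 0 higher and 1 lower, against 6.82% and 6.35%. Both NIPBLmut libraries lay above both NIPBLwt libraries in 6 of them, against 32.3%, and below both in 2, against 30.8%. The median over these 16 genes was 0.04. PSMB11, the beta subunit of the thymus, had 1 count in NIPBLmut replicate 1 and 0 in the other 3 libraries.

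**Figure D2:**
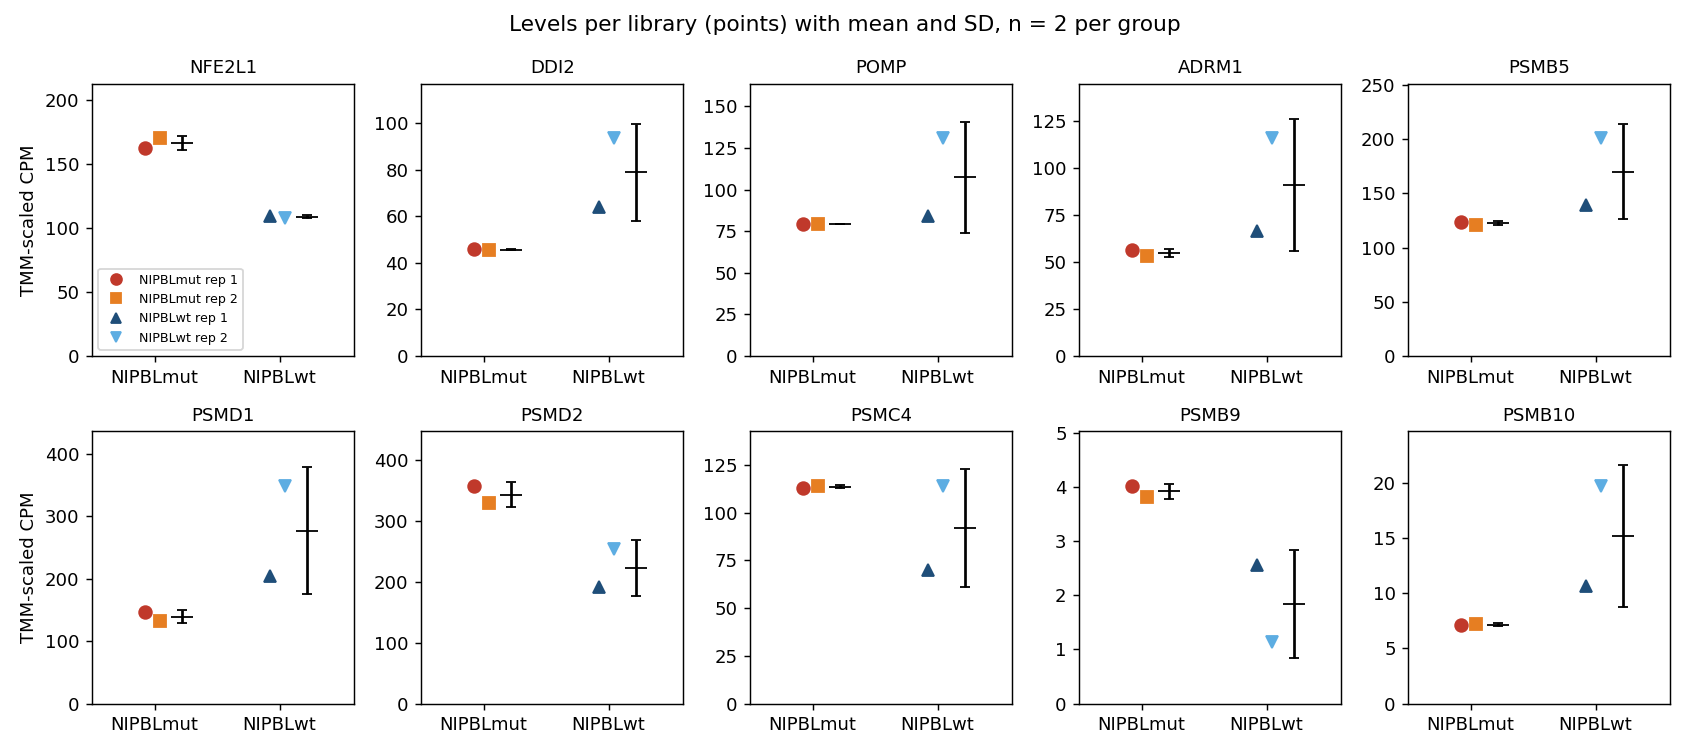
TMM-scaled CPM of 10 proteasome genes in the NIPBLmut and NIPBLwt libraries. Points are single libraries (rep 1 and rep 2) and the bar is the mean with its SD (n = 2 each); NFE2L1, PSMD2 and PSMB9 are higher in both NIPBLmut libraries, DDI2, POMP, ADRM1, PSMB5, PSMD1 and PSMB10 are lower, and in PSMC4 the NIPBLmut levels meet NIPBLwt replicate 2.

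The 6 ATPases of the 19S base, which unfold the substrate, had log2 fold changes between -0.58 and 0.30, and none was called. PSMC2 was lowest, with 97.3 and 89.6 CPM in NIPBLmut and 108 and 172 CPM in NIPBLwt (-0.58, SE 0.23, edgeR adjusted p = 0.167). PSMC4 was highest, with 113 and 114 CPM in NIPBLmut, against 70.2 and 114 CPM in NIPBLwt (0.30, SE 0.24, edgeR adjusted p = 0.432). The NIPBLmut mean differed from NIPBLwt replicate 2 by -0.0038 and from replicate 1 by 0.69 on the log2 scale. PSMC1 (-0.39), PSMC6 (-0.39) and PSMC3 (-0.17) were negative and PSMC5 (0.13) positive. PSMC1 shares 4671 of its 6161 exon bases with NRDE2 on the opposite strand and 13 pseudogenes carry its name, so its counts are uncertain.

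The 12 other 19S subunits spread more widely, from -0.99 to 0.63, again with none called. PSMD1, the largest scaffold of the base, had 147 and 132 CPM in NIPBLmut, against 205 and 349 CPM in NIPBLwt. Both NIPBLmut libraries were far below both NIPBLwt libraries, which themselves differed by 0.77 on the log2 scale (fold change -0.99, SE 0.26, edgeR adjusted p = 0.0821). DESeq2 called it (adjusted p = 0.00126). PSMD14, the enzyme that cuts ubiquitin chains from the substrate, had 93.8 and 91.6 CPM in NIPBLmut and 126 and 179.7 CPM in NIPBLwt (-0.72, SE 0.19, edgeR adjusted p = 0.0802), and DESeq2 called it lower (adjusted p = 0.00721). ADRM1, a ubiquitin receptor, had 56.2 and 53.3 CPM in NIPBLmut and 66.4 and 116 CPM in NIPBLwt (-0.74, SE 0.27, edgeR adjusted p = 0.143), and DESeq2 called it lower too (adjusted p = 0.0325). PSMD2, the other scaffold of the base, stood opposite to its partner PSMD1, with 358 and 329 CPM in NIPBLmut against 191 and 255 CPM in NIPBLwt (0.63, SE 0.17, edgeR adjusted p = 0.0863), and DESeq2 called it higher (adjusted p = 0.0178), as did edgeR with total counts (adjusted p = 0.0386) and limma in TPM (adjusted p = 0.0414). The groups did not overlap in any of these 4 genes. Over all tested genes NIPBLmut lay above without overlap in 32.3% and below in 30.8%. PSMD4, another ubiquitin receptor, had 274 and 275 CPM in NIPBLmut and 230.4 and 273 CPM in NIPBLwt (0.12, edgeR adjusted p = 0.568). The remaining 7, PSMD3, PSMD6, PSMD7, PSMD8, PSMD11, PSMD12 and PSMD13, had values between -0.38 and 0.10, and in each of them the NIPBLmut and NIPBLwt levels overlapped.

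The activators and the inhibitor lay between -0.22 and 0.11, and none was called. PSME1 and PSME2, which form the interferon-induced cap PA28, had log2 fold changes of -0.03 (edgeR adjusted p = 0.907) and -0.22 (edgeR adjusted p = 0.274). PSME2 had 41.5 and 38.1 CPM in NIPBLmut, below the 44.6 and 48.0 CPM of NIPBLwt. PSME3, the nuclear PA28 subunit, had 73.7 and 75.3 CPM in NIPBLmut, between the 53.4 and 94.7 CPM of NIPBLwt (0.01, edgeR adjusted p = 0.988). PSME4, the single-chain activator PA200, had 78.8 and 77.4 CPM in NIPBLmut and 62.1 and 82.4 CPM in NIPBLwt (0.11, edgeR adjusted p = 0.678), and the inhibitor PSMF1 had -0.02 (edgeR adjusted p = 0.957).

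Of the 8 assembly chaperones 7 were tested and none was called. POMP, which guides the closing of the core, had 79.6 CPM in each NIPBLmut library, against 83.9 and 131 CPM in NIPBLwt (-0.43, SE 0.22, edgeR adjusted p = 0.253). PSMG2, which pairs with PSMG1 to start the alpha ring, had 33.2 and 32.1 CPM in NIPBLmut and 31.5 and 31.7 CPM in NIPBLwt (0.05, edgeR adjusted p = 0.801). Its partner PSMG1 had -0.31, and PSMG3 and PSMG4, which also act on the alpha ring, had -0.22 and -0.11. The chaperones of the ATPase ring PSMD9 and PSMD10 had 0.0009 and -0.06. Their companion in that task, PSMD5, was nearly silent in both genotypes, with 2 and 3 counts in NIPBLmut and 0 and 4 counts in NIPBLwt. Scaled by length, PSMD5 was at 0.02 and 0.03 TPM (transcript abundance, scaled by length and library) in NIPBLmut and at 0 and 0.06 TPM in NIPBLwt. The genes around it on chromosome 9 were expressed in every library. MEGF9 was at 3.48 TPM in both NIPBLmut libraries and at 2.97 and 2.65 TPM in NIPBLwt, and PHF19 at 13.9 and 14.5 TPM in NIPBLmut and 14.7 and 15.8 TPM in NIPBLwt. PAAF1, another chaperone of the ATPase ring, outside the symbol rule, had 18.3 and 20.7 CPM in NIPBLmut and 20.5 and 15.2 CPM in NIPBLwt.

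Levels scaled by length varied several-fold between subunits that are equally frequent in the particle. In TPM, PSMA4 was the highest alpha subunit and PSMA5 the lowest in all 4 libraries, with a ratio of 4.65 and 4.60 in NIPBLmut and of 3.68 and 3.77 in NIPBLwt. Among PSMB1 to PSMB7 the lowest was PSMB2 in every library, at 36.5 and 38.0 TPM in NIPBLmut and 41.6 and 57.3 TPM in NIPBLwt. PSMB3 was the highest at 329 and 312 TPM in NIPBLmut, and it had 211 and 242 TPM in NIPBLwt. The ratio between the highest and the lowest of these beta subunits was 9.02 and 8.21 in NIPBLmut and 5.08 and 4.65 in NIPBLwt. Summed over all members, the level was 4802 and 4550.4 TPM in NIPBLmut, inside the range of 4071 to 5292 TPM between the NIPBLwt libraries.

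**Figure D3:**
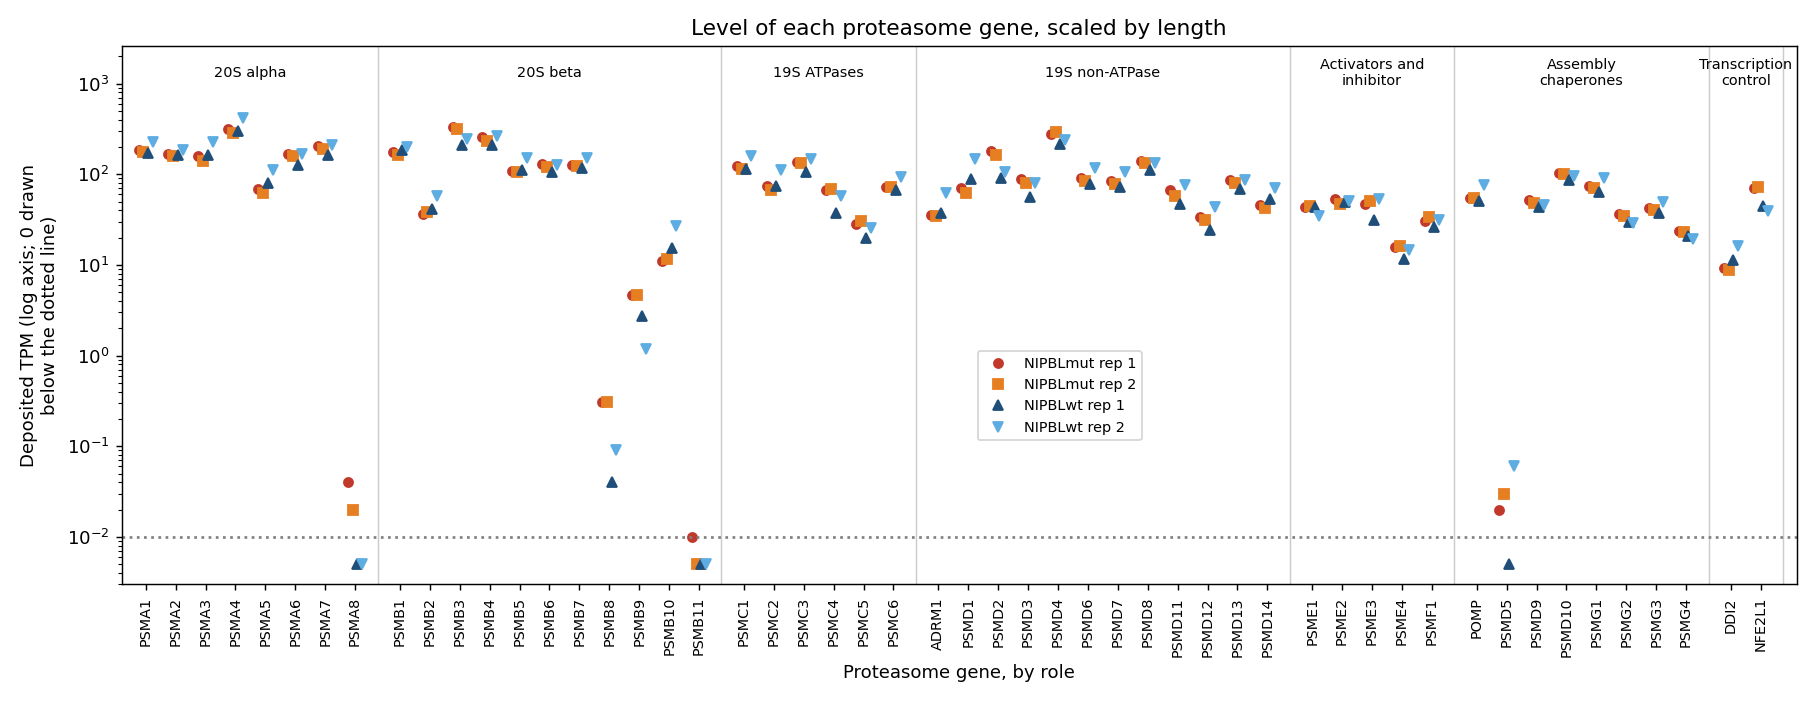
Deposited TPM of all 52 proteasome genes in each library on a log axis, by role, with values of 0 drawn below the dotted line. PSMA4 and PSMB3 are among the highest, DDI2 and the immunoproteasome genes are low, PSMA8, PSMB11 and the chaperone PSMD5 are at most at 0.06 TPM, and PSMB8 reaches 0.31 TPM in NIPBLmut.

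Set against each NIPBLwt library in turn, the members gave different pictures. Against replicate 1 the mean of the NIPBLmut libraries differed by a median of 0.05 on the log2 CPM scale over the 49 members. Both NIPBLmut libraries were above that library in 24 members and below it in 21, or 42.9%, against 43.7% above and 43.4% below over all tested genes. Against replicate 2 the median was -0.42, with both NIPBLmut libraries below it in 41 members, or 83.7%, against 44.6% of all tested genes, and above it in 8, against 46.9%. Replicate 2 exceeded replicate 1 in 46 of the 49 members by a median of 0.51, and in all 32 standard core and 19S subunits, by 0.19 to 0.91. Over all tested genes replicate 2 was above replicate 1 in 48.2%, with a median of -0.02. Leaving out replicate 2, 16 members were called higher and 11 lower by edgeR, against 21.6% and 20.3% of all tested genes. Leaving out replicate 1, 3 were higher and 37 lower, against 29.8% and 29.9%. Both fits took the spread from the close NIPBLmut pair alone.

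The members that held their direction against both NIPBLwt libraries included those with the most negative values. That is no separate support, since the fold change comes from the same libraries. On the log2 CPM scale PSMB10 had -0.56 against replicate 1 and -1.46 against replicate 2, and PSMD1 had -0.56 and -1.32. DDI2 had -0.49 and -1.03, PSMD14 -0.44 and -0.95, and PSMA5 -0.39 and -0.91. NFE2L1 had 0.60 and 0.62 and PSMD2 0.85 and 0.43. PSMD12 and PSMD11 changed direction, PSMD12 with 0.30 against replicate 1 and -0.61 against replicate 2, and PSMD11 with 0.31 and -0.55.

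Heat shock genes moved with the members between the NIPBLwt libraries. Of 17 listed heat shock genes 16 were higher in NIPBLwt replicate 2 than in replicate 1, against 48.2% of all tested genes. The median difference over the list was 0.88. Their summed level was 4313 and 3863 CPM in NIPBLmut, against 6566 and 14653 CPM in NIPBLwt replicates 1 and 2. HSPA1A, the inducible HSP70, had 263 and 232 CPM in NIPBLmut and 732 and 2741 CPM in NIPBLwt, and HSPA8, the constitutive HSP70, 582 and 601 CPM in NIPBLmut and 853 and 2099.8 CPM in NIPBLwt. By edgeR neither was called (adjusted p = 0.0582 for HSPA1A and 0.107 for HSPA8), although HSPA1A was with effective length offsets (edgeR adjusted p = 0.0458). DESeq2 called HSPA1A (adjusted p = 0.0112) but not HSPA8 (0.143). Both NIPBLmut libraries were below replicate 1 as well in 15 of the 17, against 43.4% of all tested genes below that library. By edgeR 3 of the 17 were called lower, against 2.10% of all tested genes, namely HSPE1 (-1.59), HSPA4L and HSPD1. At an unadjusted p under 0.05, 13 were lower, against 13.8%, and DESeq2 called 11 lower, against 6.35%. The neighbourhood offset left 1 called, HSPA4L, against 0.848%. HSPA4L, an HSP110 family member, fell to 69.6 and 66.3 CPM in NIPBLmut, against 137 and 179.7 CPM in NIPBLwt (edgeR adjusted p = 0.0295). HSPD1, the mitochondrial HSP60, fell to 563 and 475 CPM in NIPBLmut, against 1032 and 1489 CPM in NIPBLwt (edgeR adjusted p = 0.0373). What part this difference between the NIPBLwt libraries had in the members' values was not tested.

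Chromosome position went with the members' fold changes. Each member was set beside the median log2 fold change of its neighbours, taken over 25 tested protein-coding genes to either side without other members. Across the 49 members the 2 values correlated with a Pearson r of 0.53 and a Spearman rho of 0.62, and without PSMB8, PSMB9 and PSMB10 with 0.73 and 0.62 (n = 46). Over the 14456 tested protein-coding genes the same correlations were 0.22 and 0.32. These are descriptions across genes that share the 4 libraries and, in part, their neighbours. PSMD2 lies on chromosome 3 (184298709 to 184309054, plus strand) among genes with a median of 0.71, so that its own 0.63 differed from its surroundings by -0.09. PSMD1 on chromosome 2 (231056864 to 231172827, plus strand) and PSMD14 on the same chromosome (161308038 to 161411717, plus strand) lie among genes with medians of -0.43 for PSMD1 and -0.39 for PSMD14, from which they differed by -0.56 and -0.33. The 8 members on chromosome 17, among them NFE2L1, PSMB3, PSMD3, PSMD11 and PSMD12, had a median of 0.05 where their neighbours had 0.29. Both NIPBLmut libraries exceeded NIPBLwt replicate 1 in all 8 of them, against 43.7% of all tested genes. Against replicate 2 both were above in 2 and below in 6, where all tested genes had 46.9% above and 44.6% below. The median of these 8 was 0.40 against replicate 1 and -0.22 against replicate 2.

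Relative to their neighbours, 42 of the 49 members were lower, by a median of -0.31, against 49.4% of all tested genes with neighbours. In comparison with NIPBLwt replicate 2 alone, 45 were lower than their neighbours, by a median of -0.52. In comparison with replicate 1 alone, 30 were lower and 19 higher, with a median of -0.03. The members farthest below their neighbours were PSMB10 (-1.06), ADRM1 (-0.71) and DDI2 (-0.69), and those above them included PSMB8, PSMB9 (0.94), NFE2L1 (0.39) and PSMC4 (0.26). With the neighbour median as an offset, edgeR called 0 members higher and 0 lower, against 2.29% and 0.848% of all tested genes.

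**Figure D4:**
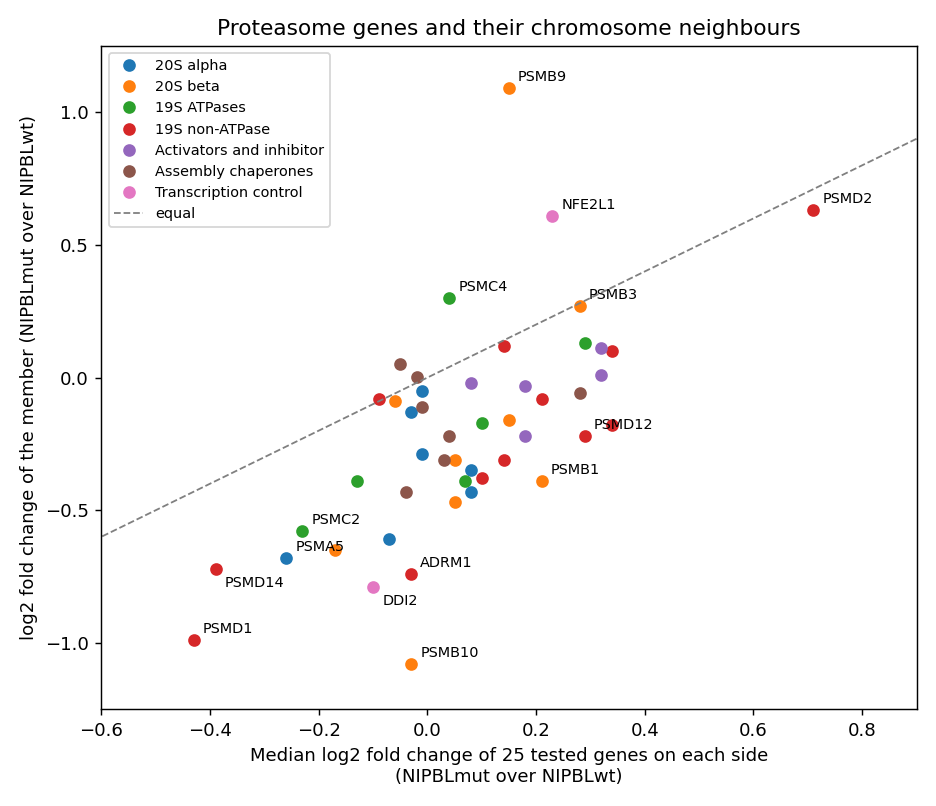
Log2 fold change (NIPBLmut over NIPBLwt) of each tested proteasome gene against the median of its 25 tested protein-coding neighbours on each side, coloured by role, with the line of equal values. Most points follow the slope of the line but lie under it; NFE2L1, PSMC4 and PSMB9 lie above it, and PSMD2 and PSMD1 are at its right and left ends (PSMB8, at 2.15, is not drawn).

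The antioxidant response element is the kind of site that NFE2L1 binds. It was searched as TGACNNNGC on both strands of the RefSeq promoter windows (GRCh38.p14), 300 bases across each start. Windows were found for 46 members, of which 16 held a match in at least 1 window, or 34.8%, against 16.1% of 27305 genes. Among tested members the log2 fold change had a median of 0.0009 in the 15 with a match and of -0.30 in the 28 without one, a description with no test. Against NIPBLwt replicate 1 the medians were 0.15 with and -0.05 without a match, and against replicate 2 they were -0.14 and -0.55. The core of the heat shock element, GAANNTTC, was in 0 of the 46 members and in 8.21% of all genes. NFE2L1 and DDI2 held neither. A match is a string of letters, and its absence says only that these letters are not in the window.

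Promoter windows are shown for 4 members, PSMD1 with the most negative and PSMD2 with the most positive value of the 19S cap, PSMB3 as the positive core subunit, and PSMD5 as the nearly silent chaperone. Matches to the antioxidant response element are in capitals, starting at 39 from the start site in PSMD1, at -104 in PSMB3 and at -134 in PSMD5. PSMD2 holds no match in the window shown.
PSMD1 (chr2:231056617-231056916, plus strand): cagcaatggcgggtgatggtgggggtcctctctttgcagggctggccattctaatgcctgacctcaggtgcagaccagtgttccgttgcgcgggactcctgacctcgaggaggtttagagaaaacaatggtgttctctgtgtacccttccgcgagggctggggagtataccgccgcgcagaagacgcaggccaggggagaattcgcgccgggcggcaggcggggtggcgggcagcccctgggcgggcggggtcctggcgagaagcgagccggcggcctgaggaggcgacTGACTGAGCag
PSMD2 (chr3:184298991-184299290, plus strand): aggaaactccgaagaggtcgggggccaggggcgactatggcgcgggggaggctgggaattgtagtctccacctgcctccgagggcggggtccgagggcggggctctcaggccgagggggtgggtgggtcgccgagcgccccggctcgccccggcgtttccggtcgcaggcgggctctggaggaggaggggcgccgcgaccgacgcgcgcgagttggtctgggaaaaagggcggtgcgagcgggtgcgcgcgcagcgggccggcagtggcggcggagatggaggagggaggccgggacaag
PSMB3 (chr17:38752491-38752790, plus strand): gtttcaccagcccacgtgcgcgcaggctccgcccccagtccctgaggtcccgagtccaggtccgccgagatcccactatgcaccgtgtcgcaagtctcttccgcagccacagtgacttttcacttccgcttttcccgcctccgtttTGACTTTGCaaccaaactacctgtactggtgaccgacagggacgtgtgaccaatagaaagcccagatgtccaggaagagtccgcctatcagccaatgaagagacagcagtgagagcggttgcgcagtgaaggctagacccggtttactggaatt
PSMD5 (chr9:120842873-120843172, minus strand): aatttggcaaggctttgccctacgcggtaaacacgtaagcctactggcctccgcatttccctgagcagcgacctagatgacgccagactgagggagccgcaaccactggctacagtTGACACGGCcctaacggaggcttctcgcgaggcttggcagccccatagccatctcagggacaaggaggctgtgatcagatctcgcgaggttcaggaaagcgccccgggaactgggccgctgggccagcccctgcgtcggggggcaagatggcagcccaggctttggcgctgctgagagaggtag

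Genes outside the symbol rule that work with the proteasome were read from a list of 27 partners and ubiquitin genes. All 27 were tested, 2 were called lower by edgeR and 0 higher, against 2.10% and 3.71% of all tested genes. At an unadjusted p under 0.05, 6 were lower and 1 higher, against 13.8% and 15.9%. DESeq2 called 4 lower and 0 higher, against 6.35% and 6.82%. SEM1, the smallest subunit of the 19S lid, fell to 37.6 and 35.9 CPM in NIPBLmut, against 56.6 and 56.1 CPM in NIPBLwt (log2 fold change -0.62, SE 0.11, edgeR adjusted p = 0.0416). Unlike most members, SEM1 was nearly equal in the NIPBLwt libraries, and its neighbours on chromosome 7 had a median of -0.26. Its call was lost with total counts (edgeR adjusted p = 0.0669), in TPM (limma adjusted p = 0.0941), with length offsets (edgeR adjusted p = 0.0502), with the neighbourhood offset (-0.35, edgeR adjusted p = 0.134) and without NIPBLmut replicate 1 (0.328) or 2 (0.451). MIDN, which carries proteins to the proteasome without ubiquitin, fell to 2.07 and 2.64 CPM in NIPBLmut, against 5.38 and 6.26 CPM in NIPBLwt (-1.3, SE 0.24, edgeR adjusted p = 0.0449). The MIDN call was lost with total counts (edgeR adjusted p = 0.0585), in TPM (limma adjusted p = 0.0554), with the neighbourhood offset (edgeR adjusted p = 0.0662) and without NIPBLmut replicate 1 (0.304) or 2 (0.167). The unfoldase VCP, which extracts ubiquitin-tagged proteins, had 273 and 242 CPM in NIPBLmut and 363 and 567 CPM in NIPBLwt (-0.85, edgeR adjusted p = 0.0833). The cap-bound deubiquitinases UCHL5 and USP14 had -0.58 (edgeR adjusted p = 0.0648) and -0.35 (edgeR adjusted p = 0.215). The list median was -0.13. NIPBLwt replicate 2 exceeded replicate 1 in 22 of the 27, against 48.2% of all tested genes, with a list median of 0.26.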

How the data were processed

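RNA of 4 libraries was measured. The submitters' processing notes name hg38 and the tools RSEM 1.3.1 and STAR 2.7.3a, with no order; the labels' protocols describe rRNA-depleted, strand-specific libraries, and the strand setting of the counting is not given in the sources used here. The authors deposited, per the file headers, expected counts (RSEM's estimates of reads per gene) and TPM (abundance scaled by effective length). Symbols and coordinates come from GENCODE 29, which held 57836 of the 58174 gene IDs. Of the 52 members, 12 have pseudogenes of their name, and 9 share exon bases with a gene on the same strand and 21 with one on the opposite strand.

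Expected counts were rounded and tested with edgeR 4.0.16 (R 4.3.3; filterByExpr, TMM, robust quasi-likelihood, Benjamini-Hochberg over 18984 genes, threshold 0.05). The SE is the log2 fold change divided by the root of F. Comparisons with single NIPBLwt libraries used log2 CPM with a prior count of 2. The fit was run on simulated data in which both groups had the same spread. The NIPBLwt pair differed far more than the NIPBLmut pair, so that run does not check the fit under such unequal spread. Alternatives used DESeq2 1.42.0, limma 3.58.1 on log2(TPM + 1), other scalings and filters, length and neighbourhood offsets, a replicate block and single libraries left out. The members and lists were chosen with earlier results of these data known. Every member could be named. Levels of all libraries were given for NFE2L1, DDI2, POMP, ADRM1, the proteolytic subunits, called members and the extremes of each role, and, of the other lists, for at most 2 called genes per direction with the smallest p and for HSPA1A and HSPA8. Some results of the other lists are not reported here. Further genes whose levels are given, among them PSMB2, PSMB3, PSMD4, PSMD14, PSME3, PSMD5, PAAF1, NGLY1, VCP, TAP1, MEGF9 and PHF19, were chosen after their values were seen.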

Additional observations from a re-analysis of the deposited data

How the results depend on the processing

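All alternatives were planned. By edgeR 704 genes were higher and 399 lower in NIPBLmut, and 1 proteasome member was higher and 0 lower. Scaling by total count gave 1112 higher genes and 2 higher members. Without the filter on low counts 1132 genes were higher and 786 lower, and 3 members were lower. DESeq2 gave 1294 and 1206 genes, with 2 members higher and 8 lower. Limma on log2(TPM + 1) gave 119 lower genes and 2 higher members. The neighbourhood offset gave 434 higher and 161 lower genes and 0 higher members. With single libraries left out, 335 to 5909 genes were higher and 64 to 5931 lower, with 0 to 16 members higher and 0 to 37 lower. The high ends came without a NIPBLwt library, where the spread is that of the NIPBLmut pair alone and the lone NIPBLwt library is assumed to vary like it.

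The labels do not say whether same-numbered libraries were prepared as pairs. Their deviations from the group means correlated at -0.0593, a single value that cannot decide it. With the replicate number as a block 1470 genes were higher and 809 lower, and 6 members were lower, namely DDI2, PSMA5, PSMB10, PSMB2, PSMD1 and PSMD14.

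The member median of -0.18 was between -0.31 and 0.04 under the other scalings, filters, tools, offsets and the block, and between -0.44 and 0.05 with single libraries left out. The median of all genes, at -0.01 by edgeR with TMM, was 0.17 with total counts and 0.12 in TPM, where the member medians were 0.01 and 0.04. Members that edgeR had not called turned sign under some settings, most of them with small log2 fold changes. PSMD2 was the exception in size, at 0.63, and only the neighbourhood offset turned it. Under total count scaling these were PSMC3 0.01, PSMD11 0.01, PSMD13 0.10, PSMD8 0.09, PSMA6 0.13, PSMA7 0.05, PSMB4 0.02, PSMB6 0.08, PSME1 0.14, PSMF1 0.16, PSMD10 0.12 and PSMG4 0.06. On log2(TPM + 1) they were PSMC3 0.10, PSMD11 0.04, PSMD12 0.00088, PSMD13 0.11, PSMD8 0.16, PSMA6 0.18, PSMA7 0.07, PSMB4 0.05, PSMB6 0.10, PSME1 0.17, PSMF1 0.16, PSMD10 0.18 and PSMG4 0.21. With the neighbourhood offset they were PSMC5 -0.15, PSMD13 0.0042, PSMD2 -0.09, PSMD3 -0.24, PSMD4 -0.02, PSMB3 -0.0016, PSME3 -0.31 and PSME4 -0.21. With single libraries left out, the lowest and highest values were PSMC3 -0.49 to 0.20, PSMC4 -0.02 to 0.69, PSMC5 -0.11 to 0.40, PSMD11 -0.57 to 0.31, PSMD12 -0.62 to 0.30, PSMD13 -0.29 to 0.14, PSMD3 -0.20 to 0.45, PSMD4 -0.01 to 0.25, PSMD7 -0.61 to 0.05, PSMD8 -0.26 to 0.09, PSMA6 -0.28 to 0.20, PSMA7 -0.35 to 0.10, PSMB4 -0.36 to 0.06, PSMB6 -0.26 to 0.08, PSME1 -0.15 to 0.08, PSME3 -0.36 to 0.48, PSME4 -0.09 to 0.33, PSMF1 -0.27 to 0.26, PSMD10 -0.21 to 0.10, PSMD9 -0.15 to 0.15 and PSMG3 -0.45 to 0.02. In these fits the sign turned mostly without a NIPBLwt library, where edgeR then called PSMC3, PSMD11, PSMD12, PSMA6 and PSMF1 higher without replicate 2 and PSMD3, PSME3 and PSMD9 lower without replicate 1. PSME3 and PSMD9 also turned with RLE scaling (-0.0032 and -0.01), with no filter (-0.01 and -0.01), with DESeq2 (-0.0033 and -0.01) and with length offsets (-0.0012 and -0.04), the last of which also turned PSMG4 (0.03). The replicate block turned PSMF1 (0.0032). Beyond the shifts of scaling and offset given here, the cause of these changes was not tested. Depth limits PSMB8, PSMA8, PSMB11 and PSMD5.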
